A study of Mus musculus with 11 samples.

Results

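The receptors described here are the genes of the DRG expression table whose symbol is Gpr followed by a number, or begins with Gprc5, apart from *Gpr37*, *Gpr37l1* and *Gpr151*. This name rule found 77 of the 36670 genes in the table, and 40 of the 77 had a mean of at least 0.5 FPKM over all mice and were among the 15087 genes tested. FPKM counts the fragments of a gene relative to its transcript length and to the size of the library, so levels of different genes can be set side by side on it. The dorsal root ganglion (DRG) holds the cell bodies of sensory neurons together with satellite glial cells, Schwann cells and macrophages. There were 11 RNA-Seq libraries, and each is counted here as 1 mouse. The labels do not say whether DRGs of several mice were pooled. Controls comprised 3 WT and 3 *Gpr37l1* KO mice, and a further 3 WT and 2 KO mice were taken 4 weeks after paclitaxel (PTX), a chemotherapy drug that causes painful neuropathy. The KO mice carry the Gpr37l1tm1Lex allele in every cell on a C57BL/6 background that began as a mixed B6 and 129S5 strain, with littermates as controls, and the sources used here give neither the age nor the PTX dose for the sequenced mice. Each group held 1 female, numbered 3, and the other mice were male, so that sex and mouse number 3 cannot be told apart. Mice are numbered as in the sample descriptions, which leave 2 and 3 for the KO PTX group. The same descriptions code the control groups with a V and do not spell out what these mice received.

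G protein-coupled receptors (GPCRs) pass a signal from outside the cell to G proteins and arrestins, and an orphan GPCR is one whose natural ligand is unknown or disputed. The symbol Gpr was given to sequences that looked like such receptors, and it now covers a mixed set. Some are class A receptors of neurons, endocrine cells or leukocytes, some are class C relatives of the metabotropic glutamate receptors, and some proved to be membrane proteins of the Golgi apparatus or the lysosome. GPR37L1 itself is an orphan class A receptor known from glia. Loss of one gene can be accompanied by a change of related genes, and 2 questions were asked of the Gpr-named genes: whether any of them stood at another level in the KO, and whether any of them stood at another level after PTX.

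The targeted gene followed the genotype labels. *Gpr37l1* was at 35.7, 34.9 and 27.6 FPKM in the WT control mice and at 14.6, 31.7 and 25.0 FPKM in the WT PTX mice. In the KO control mice it was at 0.21, 0.25 and 0.29 FPKM, and in KO PTX mice 2 and 3 it was at 0.60 and 1.15 FPKM. No KO mouse reached the lowest WT mouse, and the log2 fold change of KO control against WT control was -7.03 ± 0.37 (SE, adjusted p = 4.5e-05). Adjusted p-values of fold changes come from the quasi-likelihood test of edgeR after Benjamini-Hochberg correction over all genes tested. Libraries held 52735648 to 80348732 counts, and 4 of them were under 60000000: WT control 1, WT PTX 3 and both KO PTX mice. Markers of sensory neurons summed to 3994 to 5300 FPKM and markers of satellite glial cells to 233 to 374 FPKM, so that the defining markers of DRG were present in every mouse.

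The number of Gpr-named genes above 1 FPKM hardly differed between the groups. A mean above 1 FPKM was found for 33 of 77 members in WT control mice, 32 in WT PTX mice, 32 in KO control mice and 33 in KO PTX mice. The same 32 members were above 1 FPKM in all 4 groups, and 31 were above it in every mouse. At the lower end, 21 members had a mean under 0.1 FPKM over all mice. The members' FPKM summed to between 214 and 237 in each mouse.

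**Figure D1:**
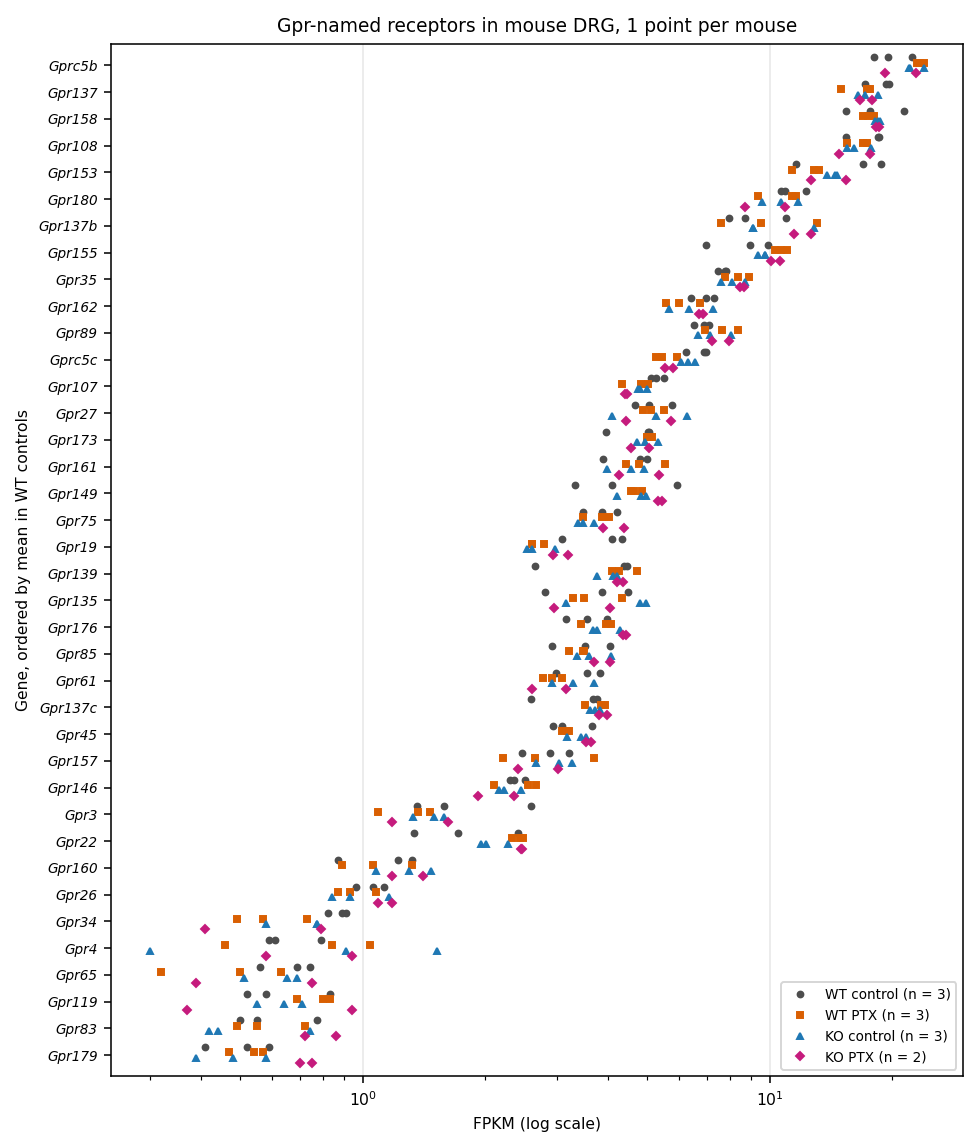
FPKM of the tested Gpr-named genes, apart from those not reported here, on a log axis, 1 point per mouse, with symbols for the 4 groups and genes ordered by their mean in WT control mice. Points of the 4 groups lie together for most genes, from *Gprc5b* at 18.0 to 24.0 FPKM down to *Gpr179* at 0.39 to 0.75 FPKM.

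The highest level belonged to *Gprc5b*, a class C receptor, with 20.0 ± 2.24 FPKM in WT control mice (SD, n = 3). It lies on chromosome 7 at 118972047 to 118995211 (mm10, minus strand). It was followed by *Gpr137*, which encodes a lysosomal membrane protein, at 18.7 ± 1.34 FPKM, and by *Gpr158*, a class C receptor that holds the RGS7 complex at neuronal membranes, at 18.2 ± 3.03 FPKM. *Gpr108*, a Golgi protein, was at 17.5 ± 1.78 FPKM and *Gpr153*, an orphan class A receptor, at 15.8 ± 3.71 FPKM. These 5 genes could not be put in a firm order, because each stood above the next in only 1 or 2 of the 3 WT control mice. Below them came *Gpr180* at 11.3 ± 0.90 FPKM, *Gpr137b* at 9.19 ± 1.55 FPKM, *Gpr155* at 8.61 ± 1.48 FPKM, *Gpr35* at 7.67 ± 0.19 FPKM and *Gpr162* at 6.89 ± 0.45 FPKM. *Gpr180* was above *Gpr137b*, and *Gpr35* above *Gpr162*, in 3 of 3 mice, and the other neighbours of this order were not separated. *Gpr137b* has a near-identical pseudogene, *Gpr137b-ps*, so its level is uncertain where reads could have been split between them.

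Members under 1 FPKM had a larger median variation between mice than those above it. The 7 members with a mean of at least 10 FPKM had coefficients of variation between 7.47% and 19.6% over all 11 mice (median 9.34%), and the 26 members between 1 and 10 FPKM had a median of 10.8%. For the 7 members between 0.5 and 1 FPKM the median was 24.3%. *Gpr35* had the lowest coefficient of the 40, at 6.14%, with 7.46 FPKM in its lowest mouse, 8.08 FPKM at the median and 8.90 FPKM in its highest. *Gpr4*, a proton-sensing receptor of blood vessels, had the highest at 42.5%, with values from 0.30 to 1.52 FPKM that were both found in KO control mice.

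Members grouped as transport or organelle proteins made up much of the list by level. Of the 9 members in this group, 8 were tested and all 8 were above 1 FPKM in WT control mice. Beside *Gpr137*, *Gpr108*, *Gpr180* and *Gpr137b*, they included *Gpr155*, a lysosomal cholesterol sensor, *Gpr89*, a Golgi anion channel that sets the pH of that organelle, at 6.83 ± 0.30 FPKM, *Gpr107* at 5.29 ± 0.20 FPKM and *Gpr137c* at 3.34 ± 0.65 FPKM. The ninth, *Gpr143*, a melanosome protein, had no value above 0.09 FPKM and was listed at 0 in 7 of 11 mice.

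Receptors of the surface were led by the class C group and by orphan class A receptors. Of 7 class C members, 5 were tested, among them *Gprc5b*, *Gpr158*, *Gprc5c* at 6.69 ± 0.42 FPKM and *Gpr179*, the retinal relative of *Gpr158*, at 0.51 ± 0.09 FPKM. All 3 members of the SREB family, a set of receptors highly conserved in vertebrate brain, were tested: *Gpr27* was at 5.15 ± 0.55 FPKM, *Gpr173* at 4.67 ± 0.62 FPKM and *Gpr85* at 3.49 ± 0.57 FPKM. Of 9 receptors listed together as active without a known ligand, 4 were tested, and all 4 were above 1 FPKM. They were *Gpr135* at 3.72 ± 0.84 FPKM, *Gpr61* at 3.46 ± 0.43 FPKM, *Gpr3* at 1.84 ± 0.66 FPKM and *Gpr26* at 1.05 ± 0.09 FPKM. A further 23 class A members, most of them known from neurons or endocrine cells, gave 15 tested genes, led after *Gpr153* and *Gpr162* by *Gpr149* at 4.44 ± 1.32 FPKM and by *Gpr161*, a brake on Hedgehog signaling in the primary cilium, at 4.56 ± 0.59 FPKM.

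Members known from leukocytes were mostly near the bottom of the list. Of 17 such members, 2 were tested and 12 had means under 0.1 FPKM. The exception was *Gpr35*, a receptor for kynurenic acid that is known from gut, mast cells and sensory neurons, with 7.46 to 8.90 FPKM in the 11 mice. *Gpr34*, the lysophosphatidylserine receptor of microglia and macrophages, was at 0.87 ± 0.05 FPKM in WT control mice, and *Gpr183*, the oxysterol receptor, was at 0.44 ± 0.11 FPKM. *Gpr174*, a lymphocyte receptor, did not pass 0.21 FPKM. The proton-sensing receptors *Gpr4* and *Gpr65* were tested and both had a mean of 0.66 FPKM in WT control mice, while *Gpr132* did not pass 0.13 FPKM in any mouse. Of the vessel receptors other than *Gpr4*, *Gpr182* was at 0.37 ± 0.07 FPKM and *Gpr20* at 0.16 ± 0.08 FPKM, and neither was tested.

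Comparison of KO with WT control mice asked whether another Gpr-named gene stood higher where *Gpr37l1* was lost, and no member passed the test. Of the 40 members, 0 had an adjusted p under 0.05 in edgeR's test, against 0.00663% of all genes tested, which is *Gpr37l1* alone. At an unadjusted p under 0.05 there were 2 members, or 5% of them, against 7.54% of all genes. DESeq2 and limma also called 0 members, here and in every other comparison apart from WT PTX against WT control mice in DESeq2. The median log2 fold change was -0.01 over the members and 0.00 over all genes. The 95% interval of the fold change lay within 2-fold in either direction for 39 of 40 members, *Gpr4* being the exception, and within 1.5-fold for 29.

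*Gpr19*, an orphan class A receptor known from brain (chromosome 6, 134869093 to 134898578, mm10, minus strand), had the smallest unadjusted p of the members in that comparison. It was at 4.09, 4.33 and 3.08 FPKM in the WT control mice and at 2.61, 2.96 and 2.53 FPKM in the KO control mice. All KO control mice lay below all WT control mice, with a log2 fold change of -0.50 ± 0.14 (SE, 95% interval -0.81 to -0.19) and an adjusted p of 0.657 in edgeR's test. *Gprc5b* had values of 19.5, 18.0 and 22.4 FPKM in WT control mice and of 22.0, 22.1 and 24.0 FPKM in KO control mice. These groups overlapped, and the log2 fold change was 0.19 ± 0.07 (SE, edgeR adjusted p = 0.657). *Gpr107*, which takes part in transport from endosomes to the Golgi, was at 5.51, 5.24 and 5.11 FPKM in WT control mice and at 4.75, 4.79 and 4.98 FPKM in KO control mice. Here too the groups did not overlap, and the log2 fold change was -0.13 ± 0.07 (SE, edgeR adjusted p = 0.664). Together with *Gpr34*, 3 of 40 members (7.5%) had all KO control mice below all WT control mice, against 4.73% of all genes tested. No member had them above, against 4.55% of all genes, so that 9.28% of all genes did not overlap.

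Among PTX mice, KO against WT also gave 0 members with an adjusted p under 0.05 in edgeR's test, against 0.0133% of all genes, and 1 member at an unadjusted p under 0.05, against 3.55%. The largest log2 fold change of a member was 0.48 ± 0.21 for *Gpr179* (SE, 95% interval -0.00 to 0.96, edgeR adjusted p = 0.993). *Gpr179* was at 0.54, 0.57 and 0.47 FPKM in WT PTX mice and at 0.70 and 0.75 FPKM in KO PTX mice 2 and 3, so that the groups did not overlap. In all, 10 of 40 members (25%) did not overlap between the groups, against 20.2% of all genes tested, with 2 mice on one side and 3 on the other. Of these, 9 members (22.5%) had all KO mice above, against 10.7% of all genes, and 1 member (2.5%) had them below, against 9.58%. Both KO PTX libraries were of lower depth, as was 1 of the WT PTX libraries. Oligodendrocyte lineage markers were higher in both KO PTX mice than in any WT PTX mouse (2.58 and 11.4 FPKM against 0.52, 0.69 and 2.27 FPKM). So were markers of spinal cord neurons (1.43 and 5.31 FPKM against 0.11, 0.08 and 1.23 FPKM). Astrocyte markers overlapped (3.79 and 8.91 FPKM against 3.05, 2.90 and 4.30 FPKM). The part of depth and of spinal cord RNA in these counts was not tested. The one below was *Gprc5b*, at 23.0, 24.0 and 23.5 FPKM in WT PTX mice and at 19.2 and 22.9 FPKM in KO PTX mice (log2 fold change -0.18 ± 0.08, SE, edgeR adjusted p = 0.993). The sign of *Gprc5b* was thus positive among control mice and negative among PTX mice. *Gpr153* had a log2 fold change of 0.21 ± 0.12 for KO PTX against WT PTX mice (SE, edgeR adjusted p = 0.993).

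With the treatments averaged, KO against WT gave 0 called members in edgeR's test, against 0.0133% of all genes, and 0 at an unadjusted p under 0.05, against 3.75%. No member had all 5 KO mice on one side of all 6 WT mice, against 0.325% of all genes tested. Fold changes of the members ran from -0.17 for *Gpr34* to 0.21 for *Gpr160* on the log2 scale. The 95% interval lay within 2-fold for 40 of 40 members and within 1.5-fold for 36. The widest was that of *Gpr4*, from -0.72 to 0.91. The smallest unadjusted p of the members was that of *Gpr107*, with a log2 fold change of -0.10 ± 0.05 (SE, edgeR adjusted p = 1.00).

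*Gpr176*, a receptor of the circadian clock of the hypothalamus, and *Gpr45*, an orphan receptor linked to energy balance, followed it with higher values in KO. *Gpr176* was at 3.15 to 4.08 FPKM in the WT mice (median 3.75 FPKM) and at 3.76, 3.67, 4.28, 4.44 and 4.36 FPKM in the KO mice, with a log2 fold change of 0.16 ± 0.08 (SE, edgeR adjusted p = 1.00). *Gpr45* was at 2.94 to 3.65 FPKM in the WT mice (median 3.13 FPKM) and at 3.54, 3.44, 3.18, 3.53 and 3.63 FPKM in the KO mice, with a log2 fold change of 0.12 ± 0.07 (SE, edgeR adjusted p = 1.00). Both genes overlapped between genotypes. Of 8 members on chromosome 1, where *Gpr37l1* lies, 2 lie within 10 Mb of it: *Gpr25* at 1.09 Mb and *Gpr39* at 9.29 Mb, both named after their values were seen. *Gpr25* was listed at 0 in 8 of 11 mice, *Gpr39* did not pass 0.39 FPKM, and neither was tested.

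**Figure D2:**
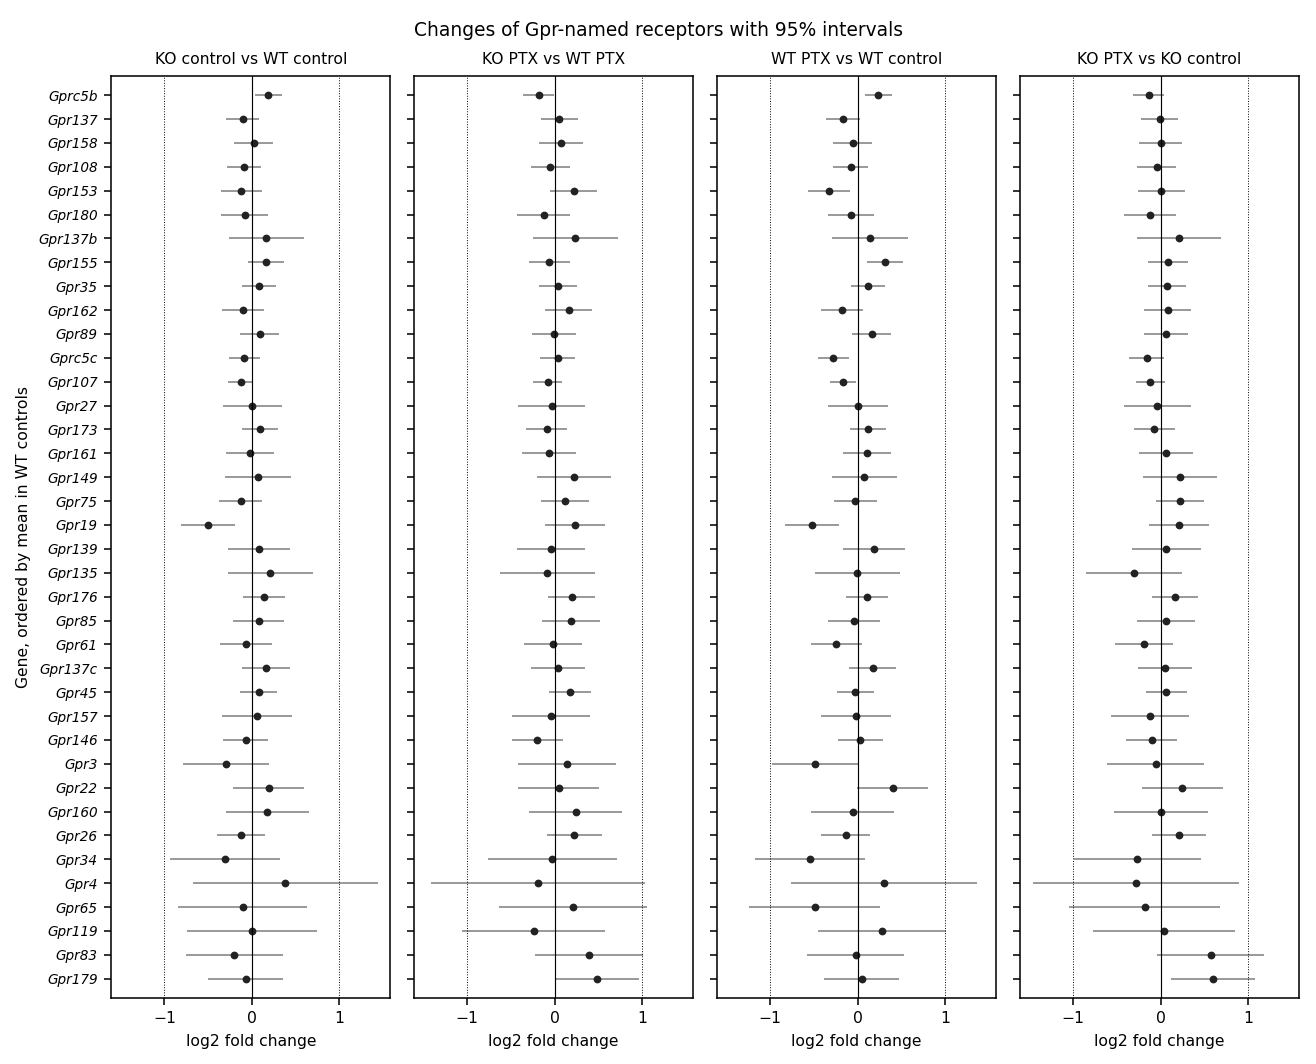
Log2 fold changes of the tested members, apart from those not reported here, with 95% intervals from edgeR in 4 comparisons and dotted lines at 2-fold. The points centre on 0 in each panel, from -0.55 for *Gpr34* to 0.59 for *Gpr179*, and intervals widen toward the members of low level at the foot.

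PTX was compared with control within WT mice, and again no member passed the test. Of 40 members, 0 had an adjusted p under 0.05 in edgeR's test, against 0.00663% of all genes, and 7 (17.5%) were under an unadjusted p of 0.05, against 13.5% of all genes. DESeq2 called 1 member, *Gpr19*, among 309 genes in all, and limma called 0. The median log2 fold change was -0.02 over the members and -0.01 over all genes. The WT control mice are shared with the comparison of KO with WT control mice, so values of both are set side by side and are not independent. The groups did not overlap for 7 members (17.5%), against 14.2% of all genes: 2 were higher after PTX, against 6.81%, and 5 lower, against 7.37%. The 95% interval lay within 2-fold for 36 of 40 members, the exceptions being *Gpr119*, *Gpr34*, *Gpr4* and *Gpr65*.

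*Gpr19* was at 2.60, 2.61 and 2.79 FPKM in the WT PTX mice, below all 3 WT control mice and close to the KO control mice. Its log2 fold change was -0.52 ± 0.14 (SE, 95% interval -0.83 to -0.21) with an adjusted p of 0.238 in edgeR's test, beside -0.50 for KO against WT in control mice. In DESeq2 the adjusted p was 0.0442, and over all alternative settings it ran from 0.0442 to 0.685. *Gprc5b* was higher in all WT PTX mice than in all WT control mice (log2 fold change 0.24 ± 0.07, SE, edgeR adjusted p = 0.264), beside 0.19 for KO in control mice. *Gpr153* was at 12.8, 13.2 and 11.3 FPKM after PTX and at 16.9, 18.8 and 11.6 FPKM in WT control mice (log2 fold change -0.33 ± 0.11, SE, edgeR adjusted p = 0.284). Mouse 3 was the lowest of both of these groups. *Gprc5c* was lower in all WT PTX mice than in all WT control mice (log2 fold change -0.28 ± 0.08, SE, edgeR adjusted p = 0.244).

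*Gpr65* and *Gpr34*, receptors for protons and for lysophosphatidylserine, had lower means in WT PTX than in WT control mice, and so did the markers of macrophages. *Gpr34* was at 0.89, 0.91 and 0.82 FPKM in WT control mice and at 0.57, 0.73 and 0.49 FPKM in WT PTX mice, without overlap, with a log2 fold change of -0.55. For *Gpr65*, a proton sensor of leukocytes, it was -0.49, and the groups overlapped. Other tested members reported here from the proton-sensing and leukocyte lists, *Gpr4* and *Gpr35*, had positive log2 fold changes (0.30 and 0.12). The 8 macrophage and microglia markers summed to 30.8 to 40.4 FPKM in WT control mice, 22.0 to 27.0 FPKM in WT PTX mice, 27.5 to 31.5 FPKM in KO control mice and 25.1 to 29.4 FPKM in KO PTX mice. All 8 had negative fold changes in WT PTX mice, with a median of -0.58 on the log2 scale and 0 called. Their part in the values of *Gpr34* and *Gpr65* was not tested. Median log2 fold changes were also negative for markers of neutrophils (-0.92), red cells (-0.49) and skeletal muscle (-2.80). The median was positive for markers of fibroblasts (0.14). In tissue RNA, fewer cells of a type and less RNA per cell cannot be told apart.

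In KO mice, PTX against control gave 0 called members in edgeR's test, against 0.00663% of all genes, and 1 at an unadjusted p under 0.05, against 4.32%. That member was *Gpr179*, at 0.58, 0.48 and 0.39 FPKM in KO control mice and at 0.70 and 0.75 FPKM in KO PTX mice (log2 fold change 0.59 ± 0.22, SE, edgeR adjusted p = 0.999). *Gpr83*, a receptor for the neuropeptide PEN, was at 0.44, 0.42 and 0.74 FPKM in KO control mice and at 0.86 and 0.72 FPKM in KO PTX mice, with overlap (log2 fold change 0.57). *Gpr75* was at 3.38, 3.48 and 3.70 FPKM and at 4.38 and 3.90 FPKM in these groups, without overlap (log2 fold change 0.22). Of the 40 members, 9 (22.5%) did not overlap, against 21.6% of all genes tested. Both KO PTX libraries had fewer than 60000000 counts and all 3 KO control libraries had more, and the same groups were separated by oligodendrocyte lineage markers (2.58 and 11.4 FPKM against 0.43 to 0.70 FPKM) and by markers of spinal cord neurons (1.43 and 5.31 FPKM against 0.08 to 0.10 FPKM). Depth, spinal cord RNA and PTX cannot be told apart in this comparison.

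With the genotypes averaged, PTX against control gave 0 called members in edgeR's test, against 0.0133% of all genes, and 5 (12.5%) at an unadjusted p under 0.05, against 9.36%. All 5 PTX mice lay on one side of all 6 control mice for 2 of 40 members (5%), against 0.742% of all genes tested, with 1 member higher (2.5%, against 0.365%) and 1 lower (2.5%, against 0.378%). The first of these was *Gprc5c*, another class C receptor (chromosome 11, 114851152 to 114872617, mm10, plus strand). Its FPKM was 5.92, 5.43 and 5.24 in WT PTX mice and 5.54 and 5.78 in KO PTX mice, and in control mice it ran from 6.06 to 6.96 with a median of 6.43. Every PTX mouse was below every control mouse, with a log2 fold change of -0.22 ± 0.06 (SE, 95% interval -0.35 to -0.09, edgeR adjusted p = 0.419).

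*Gpr155*, on chromosome 2 at 73341506 to 73386572 (mm10, minus strand), was the second. After PTX it was at 10.65, 10.30 and 11.02 FPKM in the WT mice and at 10.06 and 10.61 FPKM in the KO mice. Without PTX it ran from 6.99 to 9.90 FPKM with a median of 9.54 FPKM. Every PTX mouse was above every control mouse, with a log2 fold change of 0.20 ± 0.07 (SE, 95% interval 0.04 to 0.35, edgeR adjusted p = 0.454). The lowest control value, 6.99 FPKM, was that of WT control 1. That was the only control library of lower depth, while WT PTX 3 and both KO PTX libraries were of lower depth on the PTX side. The part of depth and of spinal cord RNA in the separation of *Gprc5c* and *Gpr155* was not tested. In an exact two-sided permutation test of FPKM over the 462 splits of 11 mice, p was 0.0043 for each of the pair. After adjustment over all genes tested it was 0.637, so neither passed. The pair was described because its groups did not overlap, and no other split can then be more extreme in the same direction. The small p thus repeats that choice and adds no support to it. The smallest p that 5 against 6 mice can give is 0.0022. A gene could pass after adjustment only if many genes came near this floor together, so the adjusted value decides nothing about the pair.

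The other members under an unadjusted p of 0.05 included *Gpr107* and *Gpr22*, the last of which was named after its values were seen. *Gpr22*, a receptor of heart and brain, was at 1.34, 2.41 and 1.71 FPKM in WT control mice and at 2.01, 2.28 and 1.95 FPKM in KO control mice. In PTX mice it was at 2.33, 2.47 and 2.44 FPKM in WT and at 2.46 and 2.45 FPKM in KO, which overlaps the control values through WT control 2 alone. Its log2 fold change was 0.32 ± 0.14 (SE, edgeR adjusted p = 0.514).

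**Figure D3:**
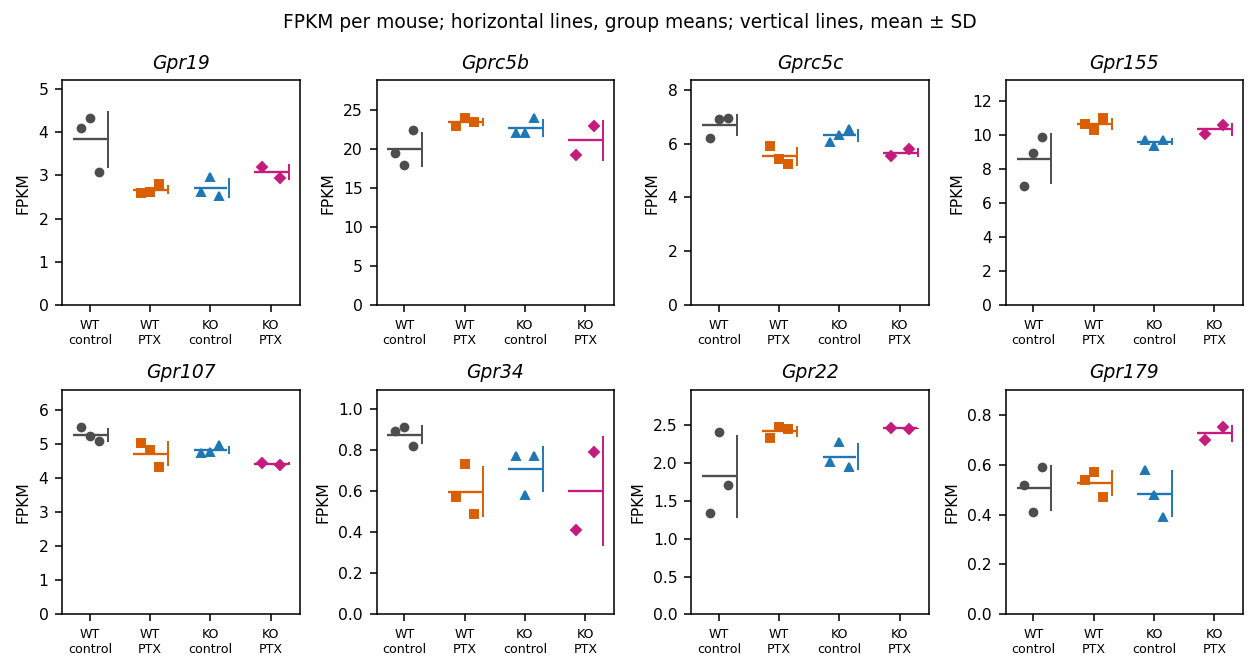
FPKM of 8 members in each mouse, with horizontal lines at group means and vertical lines for the mean ± SD. *Gpr19* is at 3.08 to 4.33 in WT control mice and at 2.53 to 3.20 in the other groups, and *Gprc5c* and *Gpr155* separate the 5 PTX mice from the 6 control mice.

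Whether PTX acted differently in KO and WT was tested as a difference of the fold changes. Of 40 members, 0 had an adjusted p under 0.05 in edgeR's test, against 0.00663% of all genes, and 2 (5%) were under an unadjusted p of 0.05, against 6.3% of all genes. They were *Gpr19* and *Gprc5b*. The PTX log2 fold change of *Gpr19* was -0.52 in WT and 0.21 ± 0.16 in KO (SE), with values of 3.20 and 2.94 FPKM in KO PTX mice 2 and 3, and the difference was 0.73 ± 0.21 (SE, 95% interval 0.27 to 1.19, edgeR adjusted p = 0.724). For *Gprc5b* it was 0.24 in WT and -0.14 ± 0.08 in KO (SE), and the difference was -0.37 ± 0.11 (SE, edgeR adjusted p = 0.724). *Gpr153* came next by unadjusted p, with a difference of 0.34 ± 0.16 (SE, edgeR adjusted p = 0.724). WT control mice had the highest mean of the 4 groups for *Gpr19* and the lowest for *Gprc5b*. Both KO PTX libraries were of lower depth. They also had higher oligodendrocyte lineage and spinal cord neuron markers than any WT PTX or KO control library. The part of depth and of spinal cord RNA in these differences was not tested. The intervals of the difference were wide: 19 of 40 members had theirs within 1.5-fold and 30 within 2-fold.

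Among members too low for the test, 3 were higher in the 4 libraries of lower depth than in the others. *Gpr17*, a receptor of immature oligodendrocytes, was at 0.29 FPKM in WT control 1, 0.19 FPKM in WT PTX 3 and 0.19 and 0.30 FPKM in the KO PTX mice, and between 0.06 and 0.13 FPKM in the other 7 mice. The 4 high values belong to the 4 libraries with under 60000000 counts. *Gpr101*, known from hypothalamus and pituitary and named after its values were seen, was at 0.01 to 0.15 FPKM in those 4 and listed at 0 in the others. In all, 3 of 77 members (3.90%) had all 4 such libraries above the other 7, against 0.853% of the 34133 genes with a value above 0.

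Markers of the oligodendrocyte lineage and of spinal cord neurons moved with the same 4 libraries, while astrocyte markers did so only in part. The 7 oligodendrocyte lineage markers summed to 2.96, 2.27, 2.58 and 11.4 FPKM in WT control 1, WT PTX 3 and KO PTX mice 2 and 3, and to 0.34 to 0.70 FPKM elsewhere. The 4 markers of spinal cord neurons summed to 1.23 to 5.31 FPKM in those libraries and to 0.08 to 0.16 FPKM elsewhere. These sums are low: 1 of the 7 and 0 of the 4 markers had a mean of at least 0.5 FPKM. The 2 astrocyte markers summed to 2.46 FPKM in WT control 1, 4.30 FPKM in WT PTX 3 and 3.79 and 8.91 FPKM in the KO PTX mice. Elsewhere they summed to 1.83 to 3.34 FPKM, so WT control 1 did not stand above the others. The part of spinal cord RNA in the values of *Gpr17* and *Gpr101* was not tested. *Gpr62*, the other member known from oligodendrocytes, was at 0.26 to 0.45 FPKM in the 4 libraries and at 0.18 to 0.43 FPKM in the other 7, with overlap.

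**Figure D4:**
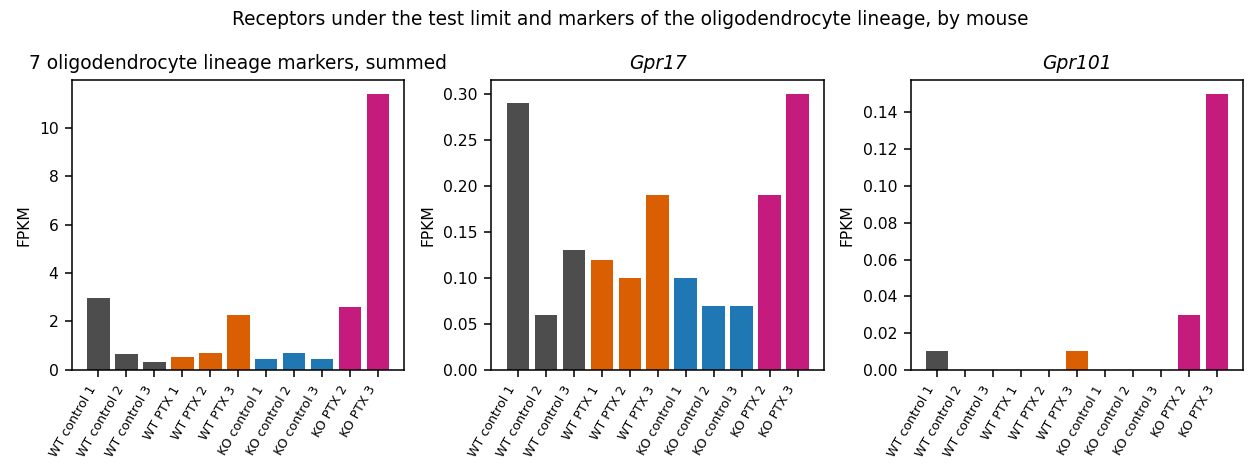
FPKM per mouse of the summed oligodendrocyte lineage markers and of *Gpr17* and *Gpr101*, with bars from 0 and colors for the groups. WT control 1, WT PTX 3 and both KO PTX mice are above the other 7 mice in all 3 panels.

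The machinery that Gpr-named receptors share was read from a list of 65 G protein subunits, arrestins, receptor kinases, RGS proteins, adenylyl cyclases and receptor-binding proteins, of which 61 were tested and 58 were above 1 FPKM in WT control mice. None was called in any of the 7 comparisons by edgeR's test. In WT PTX against WT control mice, 10 were higher and 5 lower at an unadjusted p under 0.05, or 24.6% of the 61 against 13.5% of all genes, with a median log2 fold change of 0.03 against -0.01 over all genes. *Gprasp1*, which sorts internalized receptors to the lysosome, had a log2 fold change of 0.28 ± 0.06 (SE, edgeR adjusted p = 0.203). That of *Arrb1*, which encodes β-arrestin-1, was -0.39 ± 0.10 (SE, edgeR adjusted p = 0.238). Both genes were named outside the rule used for members. *Grk6*, with a smaller unadjusted p than *Arrb1*, was at -0.29 (edgeR adjusted p = 0.225). The related genes *Gprasp2* and *Arrb2* were at 0.13 and -0.06 (edgeR adjusted p = 0.706 and 0.707). In KO mice, PTX against control gave 0% of the 61 at an unadjusted p under 0.05, against 4.32% of all genes. The share was 18.0% with the genotypes averaged (9.36% of all genes) and 11.5% for the difference of the PTX changes (6.3%). KO against WT gave 6.56% among PTX mice (3.55% of all genes) and 0% with the treatments averaged (3.75%). For KO against WT in control mice, 1 was higher and 4 lower at an unadjusted p under 0.05. That was 8.2% of the 61 against 7.54% of all genes, and *Arrb1* was at -0.36 ± 0.10 (SE, edgeR adjusted p = 0.657). Both negative values of *Arrb1* rest on the same WT control mice. Its log2 fold change was 0.08 for KO PTX against KO control mice and 0.10 for KO PTX against WT PTX mice.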

How the data were processed

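RNA-Seq of 11 DRG libraries was taken from a deposited table of 36670 genes. Poly(A) libraries were made with a stranded kit, and the submitters' processing notes name cutadapt, FastQC, HISAT2, StringTie and mm10, without versions. The FPKM columns, as deposited by the authors, are relative to transcript length and library size, with 2 decimals. The authors deposited the estimated count columns without normalization. These are whole, but WT control 1 holds 1369 genes at a count of 4 against 573 at 3, so no counting intervals were made. Depth was 52735648 to 80348732 counts per library. The labels do not say whether DRGs of several mice were pooled, so that p-values measure the spread between these libraries.

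Counts were rounded and fitted with edgeR 4.0.16 in R 4.3.3 (TMM, quasi-likelihood test, all 11 libraries, sex as a covariate) over the 15087 genes with a mean of at least 0.5 FPKM, with Benjamini-Hochberg adjustment and a threshold of 0.05. Each SE is the log2 fold change over the root of its F statistic. Alternatives were DESeq2 1.42.0, limma 3.58.1 on log2(FPKM + 1) and log2(FPKM + 0.1), other scaling, filters and covariates, a replicate block and each mouse left out. Tables were made with Python 3.11.15 (pandas 2.3.3, numpy 2.4.6) and the data.table package (version 1.17.8), exact tests with numpy and scipy 1.17.1, and figures with matplotlib 3.10.9.

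Members and gene lists were chosen with earlier results of these data known. Named genes were the 10 highest in WT control mice, the 3 with the smallest unadjusted p in each of 7 comparisons, those whose KO and WT or PTX and control mice did not overlap, and up to 4 of the highest per list; some members are not reported here. GENCODE M21 lists 76 of the members, 72 with the same coordinates. There, 8 overlap a gene on the same strand, such as *Gpr75* with *Asb3*, and 36 one on the other strand. Whether the counting used strand is not given in the sources used here.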

Additional observations from a re-analysis of the deposited data

Results flagged for a closer look

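*Gpr19* was taken for a closer look because its KO and WT mice were ordered one way without PTX and the opposite way with it. All 3 KO control mice (2.53 to 2.96 FPKM) were below all 3 WT control mice (3.08 to 4.33 FPKM), and both KO PTX mice (2.94 and 3.20 FPKM) were above all 3 WT PTX mice (2.60 to 2.79 FPKM). The log2 fold change of KO against WT was -0.50 without PTX and 0.23 with it. The difference of 0.73 did not pass edgeR's test (adjusted p = 0.724), and over the alternatives it ran from 0.54 to 0.90 with adjusted p from 0.290 to 0.999. Both KO PTX libraries were among the 4 of lower depth, and with depth as a covariate, chosen after seeing the data, the difference was 0.54. Oligodendrocyte lineage markers (2.58 and 11.4 FPKM) were also higher in both KO PTX mice than in any WT PTX or KO control mouse. So were markers of spinal cord neurons (1.43 and 5.31 FPKM). The part of depth was not tested further, and that of spinal cord RNA was not tested.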

How the results depend on the processing

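Under the alternative settings, 285 values of called counts, medians and detection stayed close to those reported and 12 moved, and 434 fold changes of named genes kept their direction and their side of the threshold. The 1 that did not was *Gpr19* in WT PTX against WT control mice, which DESeq2 called, so that the number of called members was 1 in place of 0. The median log2 fold change over members moved most. For KO against WT control mice it was -0.054 without the FPKM filter, where all 77 members enter. With the 4 libraries of lower depth as a covariate, chosen after seeing the data, the median was 0.12 for KO PTX against WT PTX, 0.093 for KO PTX against KO control, 0.044 for PTX against control and 0.14 for the difference of the PTX changes. Leaving out 1 mouse at a time gave medians from -0.049 to 0.015 for KO control against WT control, -0.0015 to 0.057 for KO against WT and -0.062 to 0.052 for WT PTX against WT control, the lowest of each without WT control 1. That library holds more of *CT010467* than the others (14804 FPKM against 897 to 2889 FPKM). The cause of these shifts was not tested.

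Mice of the same number deviated from their group means with a mean correlation of 0.08 over 15 pairs (from -0.16 to 0.25). Over 30 pairs of different number it was -0.04. Deviations sum to 0 within a group, so the second mean largely follows from the first and is no separate comparison. The correlation was over 0.1 in 7 of the 15 pairs and in 4 of the 30. These values do not decide whether the numbers pair the mice, and the main fit did not pair them. With a replicate block in place of sex, 0 members were called in each of the 7 comparisons.

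With 3 mice in each group, the 95% interval lay within 1.5-fold for 29 of 40 members in KO control against WT control mice. Members under 0.5 FPKM were not tested.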
